A study of Xenopus laevis with 24 samples.

Results

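In Xenopus laevis foregut explants, 236 of the 44478 genes listed (0.5306%) were chosen because they rose between NF25 and NF33 in controls, stood lower at NF33 in rfx6 morphants, and stood close to controls at NF33 under BMS493. They were chosen from the authors' TPM values (a level scaled for transcript length and library total) on the scale log2(mean TPM of 3 libraries + 1). A gene was kept where controls were higher at NF33 than at NF25 by at least 1 and were not lower at NF38 than at NF33 by 1 or more, where morphants differed from controls at NF33 by -0.8 or lower, and where BMS493 explants differed from controls at NF33 by less than 0.4 in either direction. The first 2 conditions held for 2236 genes, the third left 636 of these, and the fourth left 236. An upper limit of 300 genes was not reached. The control libraries at 3 stages and both treatments at NF33 thus chose the genes, so the values of those 5 groups are given as a description with no test. The 9 libraries of morphants at NF25 and NF38 and of BMS493 explants at NF25 had no part in the choice.

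Rfx6 is a transcription factor of the RFX family, which bind a shared DNA motif known as the X-box. It is known in vertebrates for its role in the endoderm that forms the pancreas and gut, where it is needed for endocrine cells. Retinoic acid is made from vitamin A and acts through nuclear receptors that turn target genes on when the ligand is bound. It patterns the gut tube along its length and is known for its role in specifying the pancreas. BMS493 is an inverse agonist of these receptors, which holds them in a repressing state. Asking for genes that differ after one treatment and not after the other separates genes by their NF33 levels in the 2 treatments. Which of the 2 inputs a gene follows was not tested.

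The foregut mesoderm and endoderm were cut out of wild-type NXR_0031 embryos at NF15 of the Nieuwkoop and Faber series and cultured at 15 °C to NF25, NF33 or NF38, with 8 explants pooled in each replicate. The rfx6 morphants received 2.5 ng of a translation-blocking morpholino at the 2-cell stage, and were profiled at NF25, NF33 and NF38. BMS493 explants received 250 nM of the compound from dissection onwards, and were profiled at NF25 and NF33. Controls carried 2.5 ng of a morpholino with 5 mismatched bases in 0.1% DMSO, and were profiled at NF25, NF33 and NF38. The labels do not state whether BMS493 explants also carried the mismatch morpholino or whether morphants were kept in DMSO. Each of the 8 groups had 3 libraries that the labels call biological replicates, and p-values measure the spread between such pools. BMS493 explants at NF38 were not analysed here.

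The 24 libraries held 19433955 to 31005048 counts each. The files list genes by number, and 0 of the identifiers matched a gene table that gives symbols, so rfx6 itself, markers of the tissue and the functions and sequences of the genes were not followed. Since the morpholino blocks translation, RNA of rfx6 would not have to be lower in morphants. Xenopus laevis carries duplicated gene copies, and near-identical copies may share reads. The labels' batch tag repeats the stage, so a difference between stages cannot be told apart from a difference between batches, while each treatment shares its tag with the control of its stage. In bulk RNA, fewer cells of a type and less RNA per cell cannot be told apart.

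Most of the genes were nearly silent at NF25. In controls, 154 of 236 had a mean under 1 TPM at NF25, and 25 had 0 counts in all 3 libraries. From NF25 to NF33 the control level was higher by a median of 2.16 on the log2(TPM + 1) scale, with quartiles of 1.55 and 3.38 and a largest value of 11.75. The step was at least 2 for 133 genes and at least 4 for 38. Control levels at NF33 ran from 1.14 to 3940.7 TPM with a median of 8.92 TPM, and 31 genes had at least 100 TPM, 79 had 10 to 100 TPM and 126 had less than 10 TPM. Expression was concentrated in few genes, since the 10 highest held 66.1% of the summed TPM of all 236 in NF33 controls.

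The size of the morphant difference at NF33 and the share of the control rise present there were both bounded by the choice, and are described without a test. Morphants differed from controls by a median of -1.05 in log2(TPM + 1), with quartiles of -1.38 and -0.91 and an extreme of -2.98. The difference was -1 or lower for 134 genes and -2 or lower for 25. Measured from control NF25 to control NF33, a median of 47.9% of the control rise on this scale was present in NF33 morphants, with quartiles of 29.2% and 64.1%. Less than 25% was present for 43 genes and more than 75% for 17, and 3 genes stood below the NF25 control level. A steep rise gives a high share on this scale even where the TPM is far below control. XBXL10_1g36936, with the largest control rise of 11.75, had a mean of 1323.8 TPM in NF33 morphants and 3940.7 TPM in NF33 controls. On the log scale the genes as a whole were therefore at an intermediate level in NF33 morphants and mostly not silent.

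Under BMS493 at NF33 the difference was held within 0.4 by the choice, and within that window it leaned downward. It had a median of -0.14, and 158 genes lay below 0 and 78 above. A value of -0.2 or lower was held by 98 genes and a value of at least 0.2 by 33. All 3 BMS493 libraries lay below all 3 controls for 112 of the 235 genes that passed the filter for testing (23.3% of all genes tested) and above them for 32 (19.0% of all genes tested). For 234 of 235 genes the 3 morphant libraries lay below the 3 control libraries (28.3% of all genes tested), and for 231 they lay below the 3 BMS493 libraries (26.9%). These counts come from the libraries that chose the genes.

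**Figure D1:**
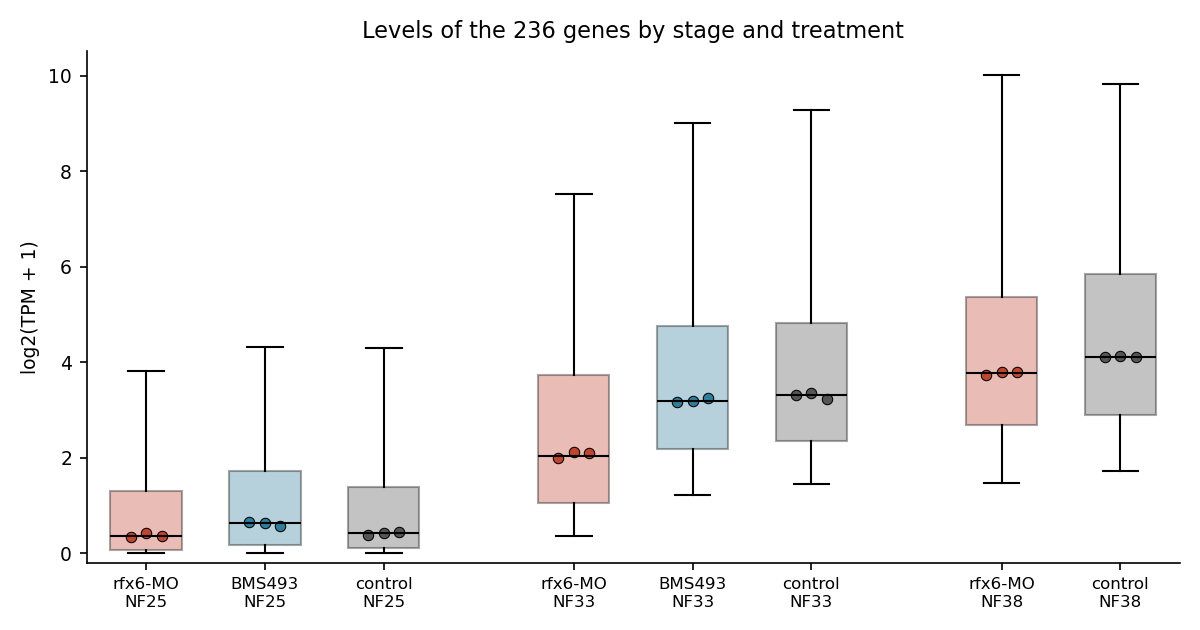
Level of the 236 genes on the log2(TPM + 1) scale in the 8 groups, ordered by stage. Boxes span the quartiles of the genes' group means with whiskers at the 5th and 95th percentiles, and each point is the median over the genes in 1 library. At NF33 the morphant points lie below those of BMS493 and control, and at NF38 the morphant points are closer to control.

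The median gene of each library shows the same course. It averaged 0.30 ± 0.04 TPM in rfx6 morphants, 0.53 ± 0.05 TPM in BMS493 explants and 0.33 ± 0.03 TPM in controls at NF25 (SD, n = 3 each). At NF33 it averaged 3.22 ± 0.21 TPM in morphants, 8.22 ± 0.29 TPM in BMS493 explants and 8.84 ± 0.48 TPM in controls (SD, n = 3 each). At NF38 it averaged 12.7 ± 0.42 TPM in morphants and 16.3 ± 0.15 TPM in controls (SD, n = 3 each). The plot of levels by group shows these library medians. At NF33 the morphants alone stood apart, and at NF38 they stood above the NF33 controls but below the NF38 controls.

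The thresholds cut through a continuous range. Just inside the morphant threshold lay genes at -0.8018 and -0.8023, and just outside it lay genes at -0.7968 and -0.7893. Just inside the BMS493 threshold lay 0.3954 and 0.3952, and just outside it 0.4017 and 0.4024. For the control rise, the nearest values were 1.013 and 1.015 inside and 0.9857 and 0.9806 outside, and for the fall by NF38 they were 0.9619 and 0.9204 inside and 1.148 and 1.191 outside. Within 0.1 of the morphant threshold there were 55 genes inside and 64 outside, and within 0.1 of the BMS493 threshold 62 inside and 41 outside.

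Choosing genes on replicates 1 to 3 with 1 number left out, and reading that replicate, shows how much of the selection carried over to libraries it did not use. Between 237 and 253 genes were chosen in this way, of which 199 to 207 belonged to the 236. In the replicate left out, the median morphant difference was -1.07, -1.09 and -0.99 for replicates 1, 2 and 3. A difference of -0.8 or lower was read for 79.8%, 79.8% and 72.7% of the chosen genes. The BMS493 difference was within 0.4 for 79.4%, 79.3% and 83.4%. With the 3 replicates averaged, its quartiles over all genes tested were -0.13 and 0.13. Lying within 0.4 was thus common among all genes, and this share alone does not show that the selection carried over. All conditions of the choice were met at once by 61.7%, 61.2% and 60.1%. In the replicate left out, the morphant difference was below 0 in 238 of 243, 231 of 237 and 242 of 253 chosen genes. With the 3 replicates averaged, it was below 0 for 11324 of the 28313 genes tested. For a single replicate, no share of all genes is given for any of these conditions. The libraries left out had the same stages and batch tags as those used to choose. Membership near the thresholds changed with the replicate.

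**Figure D2:**
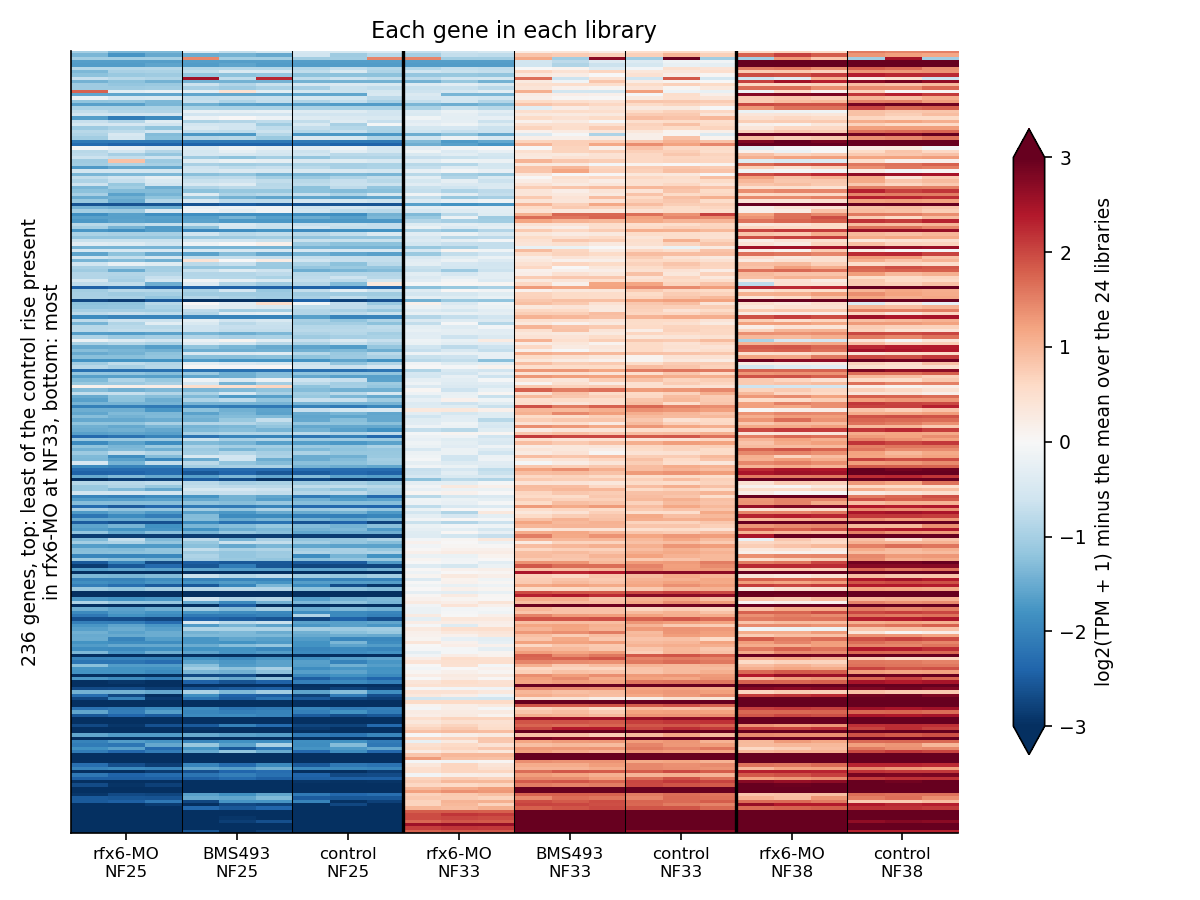
Each of the 236 genes (rows) in each of the 24 libraries (columns, grouped by treatment and stage), as log2(TPM + 1) minus the gene's mean over the libraries. Rows are ordered by the share of the control rise present in NF33 morphants, and the rows at the top are near their NF25 level in those 3 libraries and high in the other groups at NF33 and NF38.

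At NF38, a stage whose morphant libraries had no part in the choice, most of the genes were still lower in morphants, by much less than at NF33. The NF38 controls did take part, since a gene was dropped where they stood 1 or more below NF33 controls. Of 244 genes that met the other conditions, 236 met this one. A high NF38 control level thus made a gene more likely to be chosen, which favours lower morphant values. edgeR's quasi-likelihood test, with a Benjamini-Hochberg adjusted p under 0.05 over 28313 genes, called 138 of 235 genes lower in morphants than in controls (58.7%, against 21.7% of all genes tested). It called 32 higher (13.6%, against 25.4% of all genes tested), and 65 were not called. The median log2 fold change was -0.41 for these genes and 0.01 for all genes tested. A fold of at least 2 was reached by 12 genes lower (1.92% of all genes tested) and 5 higher (9.01% of all genes tested), and the values ran from -1.30 to 1.47. The 12 were 19 with no filter on low counts (684 of all 37947 genes tested). The 5 were 1 with limma on log2(TPM + 1) (863 of all 27346 genes tested). With limma on log2(TPM + 0.1), 106 genes were called lower and 9 higher at any fold. Among all 27346 genes tested in that setting, 5653 were called lower and 5017 higher.

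For 226 of 236 genes the NF38 difference in log2(TPM + 1) was smaller in size than the NF33 difference, and 31 still stood at -0.8 or lower. The NF33 values chose the genes and the NF38 values did not, so a smaller value at NF38 is partly built into the choice. Among the chosen genes, how far a gene stood below control at NF33 said little of where it stood at NF38. The Spearman correlation across the 236 genes was -0.03, a description over genes that share the same libraries and are not independent replicates. The choice cut the NF33 differences off at -0.8, with a median of -1.05, and this narrowed range limits what the correlation can show. The 2 comparisons use different control libraries.

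**Figure D3:**
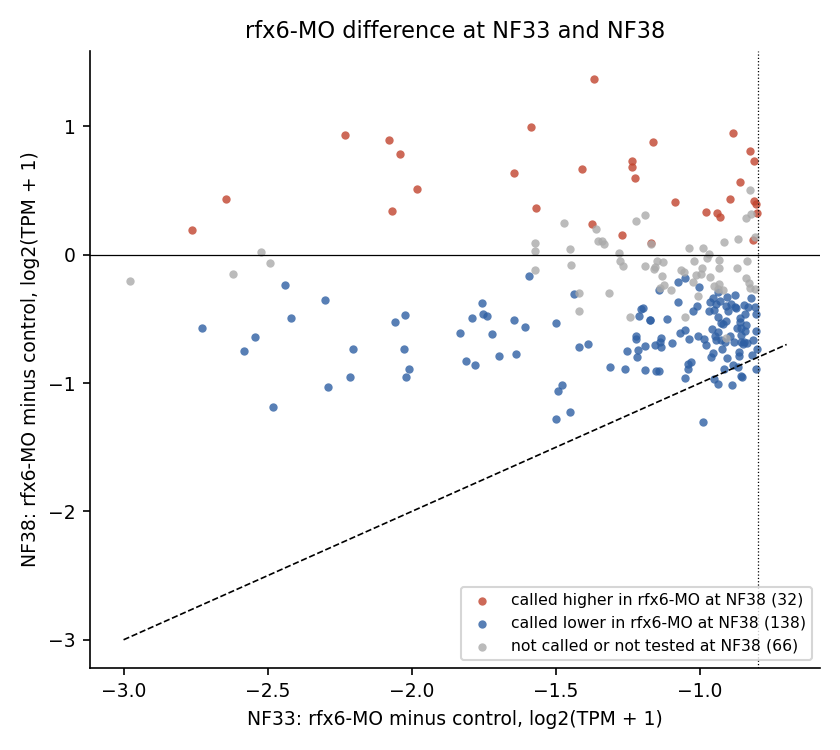
Difference of rfx6 morphants from controls in log2(TPM + 1) at NF33 (horizontal, used to choose the genes) and at NF38 (vertical) for the 236 genes. Colours give the edgeR call at NF38, the dashed line marks equal differences, the dotted line marks -0.8, and most points lie above the dashed line and below 0.

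The genes were not alike at NF38. Of the 31 genes with at least 100 TPM in NF33 controls, 16 were called lower and 9 higher in NF38 morphants, with a median log2 fold change of -0.11. Of the 79 genes with 10 to 100 TPM, 57 were called lower and 8 higher, with a median of -0.46. Of the 125 tested genes with less than 10 TPM, 65 were called lower and 15 higher, with a median of -0.41. Among the 10 highest genes 4 were called higher and 2 lower. All 9 genes called higher in the class of at least 100 TPM had identifiers from XBXL10_1g41017 to XBXL10_1g41031 or from XBXL10_1g43751 to XBXL10_1g43759. These 9 enter the class median of -0.11, and the other genes of the class were called lower or not called. A median nearer 0 is therefore not shown for the class without them. Whether genes with such close numbers share reads was not tested. Across all 236 genes, control NF33 TPM and the NF38 difference had a Spearman correlation of -0.12, so by rank higher genes leaned slightly to lower values. Differences between these classes were not tested.

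Genes were also counted by their control course after NF33. Controls at NF38 stood at least 1 above NF33 on the log2(TPM + 1) scale for 80 genes, above by 0 to 1 for 107 and below for 49. Of these 80, 55 were called lower and 3 higher in NF38 morphants, with a median log2 fold change of -0.46. Of the other 155 tested genes, 83 were called lower and 29 higher, with a median of -0.37. The NF38 controls define these classes and also enter the fold change, so the split is a description.

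The summed level in NF38 morphants was closer to control than that of the typical gene. The 236 genes together had 58279.9 ± 1381.5 TPM in NF38 morphants and 60716.7 ± 157.2 TPM in NF38 controls (SD, n = 3 each). Without the 10 highest genes the sum was 14660.9 ± 110.7 TPM in morphants and 17642.2 ± 98.9 TPM in controls. At NF33 the sum over all 236 was 10164.4 ± 304.7 TPM in morphants, 27655.0 ± 333.6 TPM in BMS493 explants and 27972.3 ± 451.5 TPM in controls. The 10 highest genes held 74.8% of the sum in NF38 morphants and 70.9% in NF38 controls.

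XBXL10_1g36936, the highest gene, had 1283.6, 1346.8 and 1341.0 TPM in NF33 morphants, 4006.4, 4140.8 and 4182.8 TPM in BMS493 explants and 3958.7, 3948.8 and 3914.5 TPM in controls. At NF38 it had 12490.7, 11442.6 and 11701.8 TPM in morphants and 11426.6, 11741.6 and 11717.0 TPM in controls. The morphant libraries were all low at NF33 and overlapped the controls at NF38, where the log2 fold change was 0.08 (SE 0.05, edgeR adjusted p = 0.1375). XBXL10_1g31738, the next highest, had 1210.0, 1185.8 and 1241.9 TPM in NF33 morphants, 2274.5, 2200.5 and 2294.6 TPM in BMS493 explants and 3094.7, 2930.2 and 2832.8 TPM in controls. At NF38 it had 6777.8, 6057.2 and 6374.4 TPM in morphants and 6439.8, 6349.7 and 6253.5 TPM in controls, again overlapping (log2 fold change 0.07, SE 0.05, edgeR adjusted p = 0.2568).

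The 2 genes named for the largest decreases in NF38 morphants ranked below the 2 highest genes. In NF33 controls XBXL10_1g15760 had a mean of 15.7 TPM and XBXL10_1g22986 of 209.4 TPM. Levels of single genes from here on are CPM, which edgeR scales for library size and which are not corrected for length. XBXL10_1g15760 had 6.33, 7.56 and 7.55 CPM in NF38 morphants and 17.0, 17.9 and 18.2 CPM in controls. All 3 morphant libraries lay below the controls, and the log2 fold change was -1.30 (SE 0.11, edgeR adjusted p = 1.35e-16), while limma on log2(TPM + 0.1) gave a difference of -1.33 that it did not call (adjusted p = 0.0586). XBXL10_1g22986 had 45.8, 45.7 and 43.5 CPM in morphants and 110.2, 105.7 and 108.4 CPM in controls. The groups were far apart again, and the log2 fold change was -1.27 (SE 0.06, edgeR adjusted p = 8.09e-31).

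Others had overshot the control level by NF38. XBXL10_1g29647 had 17.3, 14.3 and 14.2 CPM in NF38 morphants and 4.76, 5.47 and 6.31 CPM in controls. The groups did not overlap, and the log2 fold change was 1.47 (SE 0.13, edgeR adjusted p = 3.00e-16). XBXL10_1g31171 had 8.79, 8.27 and 7.61 CPM in morphants and 3.877, 3.755 and 3.14 CPM in controls. It too was higher in each morphant library, with a log2 fold change of 1.20 (edgeR adjusted p = 3.09e-10).

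At NF38 the share of the genes called lower was set beside that of other rising genes. For the 235 genes described here the shares were 58.7% lower and 13.6% higher. Of 676 tested genes that met the same control course and were within 0.4 of control at NF33 in both treatments, 122 (18.0%) were called lower and 230 (34.0%) higher in NF38 morphants, with a median log2 fold change of 0.08. Of 225 tested genes with the same course and a difference of -0.8 or lower at NF33 in both treatments, 136 (60.4%) were called lower and 30 (13.3%) higher, with a median of -0.50. Both lists share the control libraries with the 236 genes and were also chosen by NF33 values, so the difference between lists was not tested.

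The rise itself took place in morphants. Comparing NF38 with NF25 morphants, 6 libraries that had no part in the choice, edgeR called 231 of 235 genes higher at NF38 (98.3%, against 42.3% of all genes tested) and 2 lower (36.5% of all genes tested). At least 2-fold higher were 225 genes (26.1% of all genes tested), and 0 genes were at least 2-fold lower (15.1% of all genes tested). The median log2 fold change was 5.35 for these genes and 0.09 for all genes tested, and 5.26 with the 29 genes at 0 counts in NF25 morphants set to the smallest fold that 3 counts over the group would give. Stage and batch cannot be told apart in this comparison. The genes were chosen for a rise in controls, so a rise in morphants is not independent of the way the genes were found.

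To speak of these genes as needing Rfx6 describes the NF33 level by which they were chosen. Of the 235 tested, 231 were called higher in NF38 than in NF25 morphants. At NF38, 138 of the 235 were called lower in morphants than in controls. On the log2(TPM + 1) scale, the morphant rise from NF25 to NF38 was a median of 90.3% of the control rise, with quartiles of 80.7% and 102.5%, and it was smaller than in controls for 168 of 236 genes. A share on this scale can be high while the TPM stands well below control. Morphants gained a median of 1.19 from NF25 to NF33 and 1.42 from NF33 to NF38. Controls gained 2.16 and 0.61 over the same steps. That timing is built into the choice, which asked for a large early step in controls and a low level in NF33 morphants, and nothing is read from it.

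The NF38 morphants were set beside the NF33 controls as well. The mean TPM of NF38 morphants was at or above that of NF33 controls for 151 of 236 genes. All 3 NF38 morphant libraries lay above all 3 NF33 control libraries for 141 of 235 genes (60.0%, against 37.2% of all genes tested). They lay below them for 54 (23.0%, against 27.8% of all genes tested). For those 54 genes the level at the later stage was below the control level at the earlier one, a smaller share than among all genes tested. The NF33 controls chose the genes, so no test is given.

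Single genes show how steep the rise in morphants was. XBXL10_1g33347 had 1 count over the 3 NF25 morphant libraries and 3919.7, 3369.9 and 3517.3 CPM at NF38. NF38 morphants exceeded NF25 morphants 250512.9 times, and the 95% interval from counting error alone ran from 44961.8 to 9894762.2. XBXL10_1g36936 likewise had 1 count at NF25 and 3243.3, 2794.6 and 2835.1 CPM at NF38, a ratio of 205489.0 (95% counting interval 36880.9 to 8116412.9). Both genes were all but undetected in morphants at NF25 and among the most abundant of the genes at NF38.

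The 2 genes that fell in morphants went against the course of the others. XBXL10_1g17220 had 17.55, 17.07 and 17.06 CPM in NF38 morphants and 27.8, 30.4 and 31.0 CPM in NF25 morphants, a log2 fold change of -0.79 (edgeR adjusted p = 9.02e-18). XBXL10_1g30797 had 2.09, 2.96 and 3.24 CPM in NF38 morphants and 5.41, 4.90 and 5.92 CPM in NF25 morphants, a log2 fold change of -0.96 (edgeR adjusted p = 9.40e-08). All NF38 libraries lay below all NF25 libraries in both genes, and the call of XBXL10_1g30797 was lost with limma on log2(TPM + 1), adjusted p = 0.1428. In controls the same genes were higher at NF38 than at NF25, with 31.6, 29.3 and 32.1 CPM at NF38 and 7.93, 9.76 and 8.37 CPM at NF25 for XBXL10_1g17220.

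**Figure D4:**
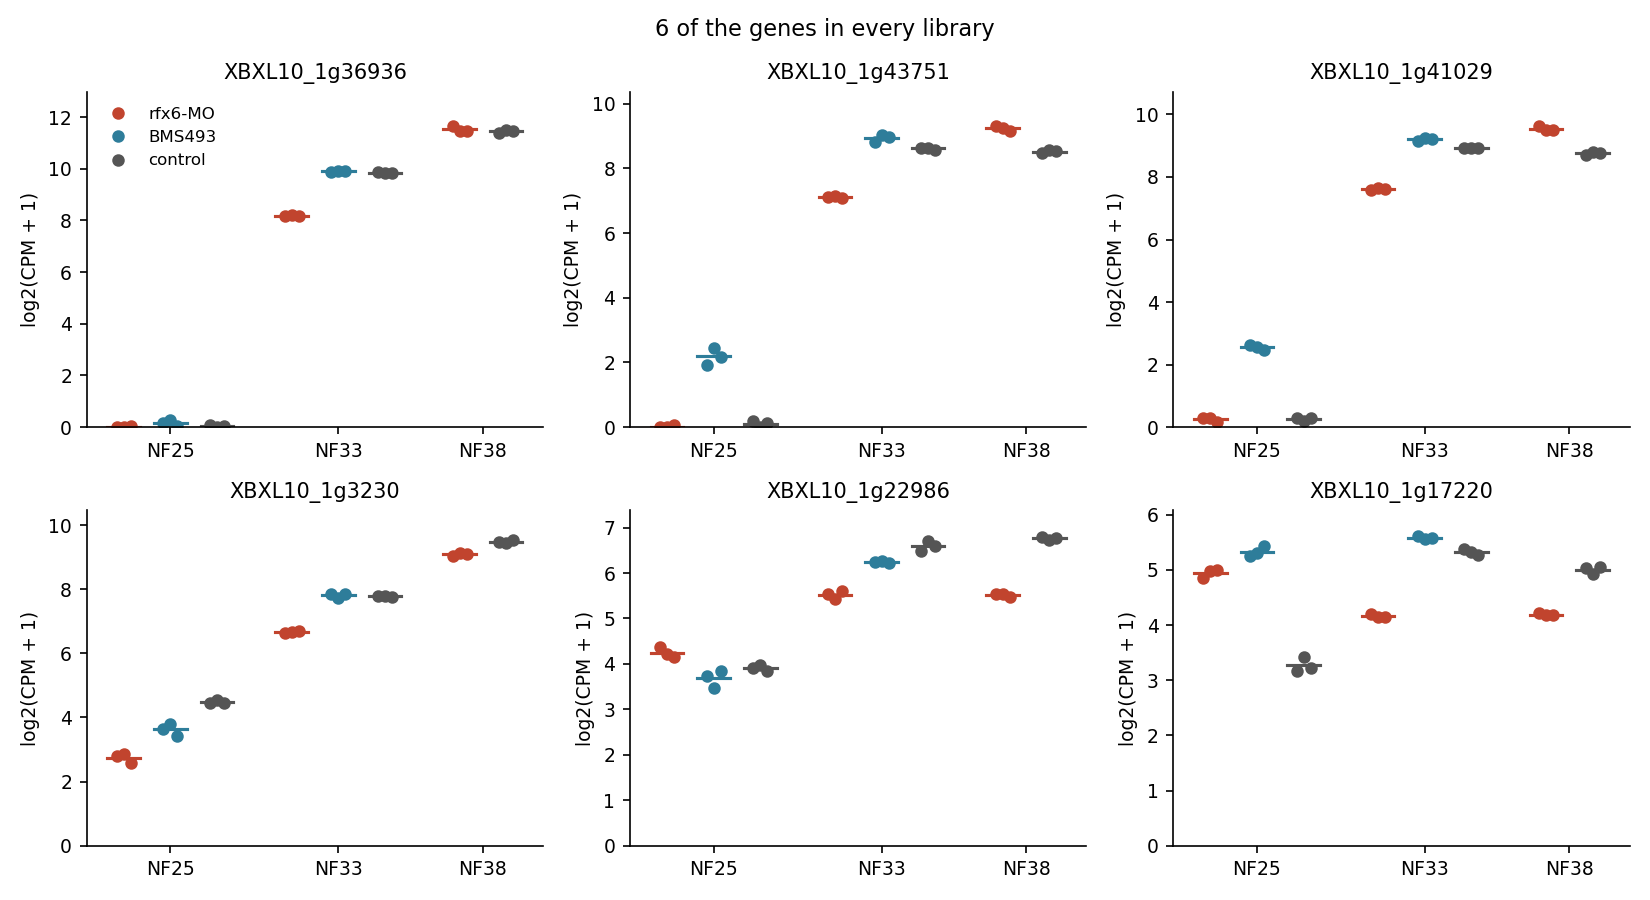
6 of the named genes in every library, as log2(CPM + 1) on the edgeR library scale. Each point is 1 library and each bar the mean of 3, with rfx6-MO, BMS493 and control side by side at each stage, and BMS493 present at NF25 and NF33. XBXL10_1g43751 and XBXL10_1g41029 are higher in BMS493 explants than in the other groups at NF25, though far below their NF33 levels. XBXL10_1g17220 is lower in morphants at NF38 than at NF25.

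At NF25 most of the genes were not called in rfx6 morphants, and among those called more were lower than higher. edgeR called 25 of 235 genes higher (10.6%, against 18.0% of all genes tested) and 48 lower (20.4%, against 16.6% of all genes tested), and 162 were not called. The median log2 fold change was -0.15 for these genes and 0 for all genes tested, and -0.09 with the 39 genes at 0 counts in at least 1 of the groups set to their bound, or to 0 where neither group exceeded 3 counts. The median was -0.07 without control NF25 replicate 2 and -0.08 without control NF25 replicate 3. At least 2-fold lower were 17 genes (2.68% of all genes tested) and at least 2-fold higher 13 (4.34% of all genes tested). Depth limits this comparison, because 74 genes had fewer than 10 counts over the 3 libraries of either group. The NF25 controls also helped to choose the genes, and a low level there favours a higher morphant value over control. The share called lower was larger among the highest genes, at 10 of 31 with at least 100 TPM in NF33 controls, against 14 of 125 with less than 10 TPM, where depth at NF25 also differs. The 25 genes called higher were 16 without control NF25 replicate 3. They were 15 of the 116 that passed the filter when the 2 groups were fitted alone (4880 of all 23841 genes tested). The 17 at least 2-fold lower were 10 without morphant NF25 replicate 3.

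The genes called lower in morphants were compared between NF25 and NF38. Of the 48 genes called lower in NF25 morphants, 35 were also called lower in NF38 morphants, which is 72.9% of the NF25 list and 25.4% of the NF38 list. Among all genes tested, 44.8% of those called lower at NF25 were called lower at NF38, and 58.7% of the 235 genes were called lower at NF38 whatever their NF25 call. XBXL10_1g3230 was one of them, with 5.96, 6.33 and 4.92 CPM in NF25 morphants and 20.7, 22.5 and 21.0 CPM in NF25 controls. Its 3 morphant libraries were far below control, and the log2 fold change was -1.90 (SE 0.08, edgeR adjusted p = 4.85e-31). At NF38 it had 520.1, 562.7 and 546.2 CPM in morphants and 708.5, 688.7 and 734.1 CPM in controls, a log2 fold change of -0.39 (edgeR adjusted p = 1.54e-11).

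Other genes went in opposite directions at the 2 stages. XBXL10_1g37725 had 0.60, 0.22 and 0.40 CPM in NF25 morphants and 1.55, 0.94 and 1.35 CPM in NF25 controls (log2 fold change -1.67, SE 0.31, edgeR adjusted p = 7.15e-06). At NF38 it had 16.1, 18.6 and 15.8 CPM in morphants and 10.3, 9.79 and 9.62 CPM in controls (log2 fold change 0.76, edgeR adjusted p = 8.27e-09). It thus stood below control at the first stage and above it at the last. XBXL10_1g17220 did the reverse, with 27.8, 30.4 and 31.0 CPM in NF25 morphants and 7.93, 9.76 and 8.37 CPM in NF25 controls (log2 fold change 1.78, SE 0.08, edgeR adjusted p = 1.25e-31). At NF38 it was lower in morphants, with a log2 fold change of -0.85 (edgeR adjusted p = 5.66e-19). XBXL10_1g11881 was also higher at NF25, with 1.329, 1.301 and 1.047 CPM in morphants and 0.42, 0.31 and 0.31 CPM in controls (log2 fold change 1.79, SE 0.33, edgeR adjusted p = 1.09e-05). At NF38 it was not called, with a log2 fold change of -0.31 (edgeR adjusted p = 0.1301). BMS493 explants at NF25 were higher than controls too, by 2.18 in log2 for XBXL10_1g17220 (edgeR adjusted p = 1.32e-37). For XBXL10_1g11881 this was 2.42 (edgeR adjusted p = 6.88e-10).

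A part of these genes differed between BMS493 explants and controls at NF25, although the choice held them near control under BMS493 at NF33. Whether BMS493 itself or the control morpholino made this difference was not tested. edgeR called 78 of 235 genes higher in BMS493 explants than in NF25 controls (33.2%, against 16.1% of all genes tested) and 15 lower (6.38%, against 14.8% of all genes tested), and 142 were not called. At least 2-fold higher were 46 genes (3.83% of all genes tested) and at least 2-fold lower 5 (2.40% of all genes tested), and the 5 were 3 without BMS493 NF25 replicate 1. With only these 2 groups in the fit, 129 of the genes passed the filter and 26 of them were at least 2-fold higher (815 of all 23849 genes tested). The median log2 fold change was 0.44 for these genes and 0.01 for all genes tested, and 0.38 with the 32 genes at 0 counts in at least 1 group set to their bound, or to 0 where neither group exceeded 3 counts. The NF25 controls were among the libraries that chose the genes, and a low value there made a gene more likely to be chosen.

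The higher level under BMS493 at NF25 was also seen in other rising genes. Of the 676 tested rising genes within 0.4 of control at NF33 in both treatments, 282 (41.7%) were called higher and 16 (2.37%) lower in NF25 BMS493 explants. Of the 225 tested rising genes low in both treatments at NF33, 19 (8.44%) were called higher and 49 (21.8%) lower. Those lists use the same NF25 controls. Among the 236 genes, 17 of 31 with at least 100 TPM in NF33 controls were called higher and 5 lower, with a median log2 fold change of 0.66. That median includes the genes numbered XBXL10_1g41017 to XBXL10_1g41031 and XBXL10_1g43751 to XBXL10_1g43759, which all had positive values. Genes whose controls stood less than 1 above NF33 at NF38, or below it, had 61 of 155 called higher and 11 lower, and genes at least 1 above had 17 of 80 called higher and 4 lower. Of the 155, 34 values lay below 0 and 117 above, and of the 80, 29 below and 42 above, with the rest at exactly 0. Depth at NF25 thus also differs between these classes, and the split was not tested.

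XBXL10_1g43751 and XBXL10_1g41029 had the 2 largest called increases under BMS493 at NF25 among genes with a mean of at least 1 CPM in either group and groups that did not overlap. XBXL10_1g43751 had 2.80, 4.50 and 3.51 CPM in BMS493 explants and 0.14, 0 and 0.09 CPM in NF25 controls (log2 fold change 5.40, edgeR adjusted p = 1.56e-16). This rests on 270 counts over the BMS493 libraries and 5 over the controls. XBXL10_1g41029 had 5.23, 4.93 and 4.52 CPM in BMS493 explants and 0.23, 0.16 and 0.22 CPM in NF25 controls (log2 fold change 4.53, edgeR adjusted p = 6.11e-30). Here the counts were 370 and 13. Both genes were present in every BMS493 library and close to undetected in the controls of that stage.

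By NF33 these 2 genes were abundant in every group. XBXL10_1g43751 had 138.4, 140.0 and 135.0 CPM in NF33 morphants, 448.7, 519.0 and 498.6 CPM in BMS493 explants and 396.4, 398.7 and 378.4 CPM in controls. At NF38 it had 635.9, 602.2 and 566.1 CPM in morphants and 352.8, 375.2 and 367.7 CPM in controls, a log2 fold change of 0.72 (edgeR adjusted p = 2.23e-15). The morphant libraries lay below control at NF33 and above it at NF38. XBXL10_1g41029 did the same, with 798.9, 716.6 and 723.5 CPM in NF38 morphants and 420.0, 449.2 and 430.6 CPM in NF38 controls (log2 fold change 0.78, edgeR adjusted p = 6.38e-27).

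The 2 genes named for the largest decreases under BMS493 at NF25 were lower in NF25 morphants too. XBXL10_1g5546 had 2.20, 1.78 and 1.44 CPM in BMS493 explants and 3.89, 4.39 and 4.90 CPM in NF25 controls (log2 fold change -1.28, SE 0.16, edgeR adjusted p = 5.27e-10). In NF25 morphants it had 1.70, 1.74 and 1.09 CPM, with -1.56 as its log2 fold change over the same controls (edgeR adjusted p = 4.09e-12). XBXL10_1g37725 had 0.34, 0.51 and 0.35 CPM in BMS493 explants, a log2 fold change of -1.69 against control (edgeR adjusted p = 4.58e-06). Both comparisons share the 3 NF25 control libraries.

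Set against each other at NF25, in 6 libraries that had no part in the choice, the treatments differed mainly in 1 direction. edgeR called 99 of 235 genes lower in rfx6 morphants than in BMS493 explants (42.1%, against 21.5% of all genes tested) and 12 higher (5.11%, against 21.6% of all genes tested), and 124 were not called. At least 2-fold lower were 59 genes (5.13% of all genes tested) and at least 2-fold higher 6 (5.42% of all genes tested). With only these 2 groups in the fit, 36 of the 131 that passed the filter were at least 2-fold lower (1124 of all 24407 genes tested). The median log2 fold change was -0.57 for these genes and -0.0024 for all genes tested, and -0.42 with the 36 genes at 0 counts in at least 1 group set to their bound, or to 0 where neither group exceeded 3 counts. Morphants thus stood lower than BMS493 explants before NF33 too, but the gap was made up otherwise than at NF33. Over NF25 controls the median log2 fold change was 0.44 for BMS493 explants and -0.15 for morphants.

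This difference was not shown to be particular to the genes. Of the 676 tested rising genes within 0.4 of control at NF33 in both treatments, 272 (40.2%) were called lower in NF25 morphants than in BMS493 explants and 79 (11.7%) higher. Of the 225 tested rising genes low in both treatments at NF33, 32 (14.2%) were called lower and 37 (16.4%) higher. Within the 236 genes, 82 of the 155 with less than 1 of further control gain from NF33 to NF38 were called lower and 7 higher, and 17 of the 80 with at least 1 were called lower and 5 higher. Depth at NF25 also differs between these 2 classes, and the split was not tested. Of the 31 genes with at least 100 TPM in NF33 controls, 21 were called lower and 2 higher, with a median log2 fold change of -1.21. The 21 included every gene of this class with an identifier from XBXL10_1g41017 to XBXL10_1g41031 or from XBXL10_1g43751 to XBXL10_1g43759. A larger gap is not shown for the class without them.

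**Figure D5:**
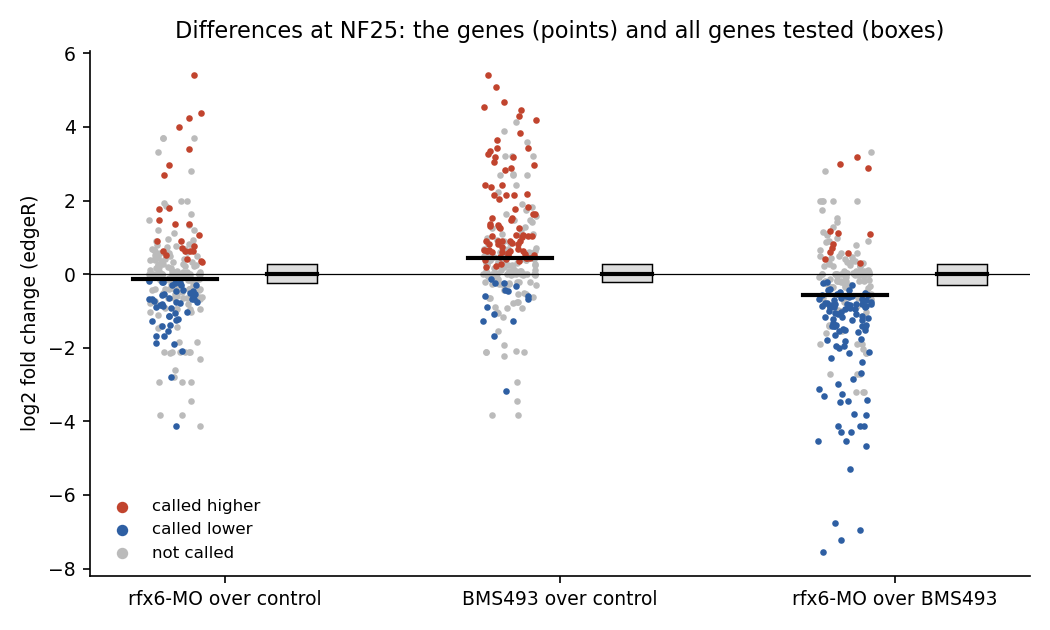
log2 fold changes (edgeR) at NF25 of the 235 tested genes in 3 comparisons, each point 1 gene coloured by its call and the bar their median. The grey box beside each gives the quartiles and median of all 28313 genes tested, and the medians of the genes are -0.15, 0.44 and -0.57 from left to right.

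The 2 genes named for the largest decreases in morphants relative to BMS493 explants were the 2 named above for their increase under BMS493. XBXL10_1g43751 had 1 count over the 3 NF25 morphant libraries and 270 counts over the 3 BMS493 libraries. BMS493 explants exceeded morphants 248.9 times, and the 95% interval from counting error alone ran from 44.3 to 9866.3. XBXL10_1g41029 had 0.23, 0.22 and 0.12 CPM in NF25 morphants and 5.23, 4.93 and 4.52 CPM in BMS493 explants (log2 fold change -4.68, edgeR adjusted p = 1.97e-31). Its counts were 13 in morphants and 370 in BMS493 explants. For both genes the NF25 morphant libraries overlapped the NF25 controls.

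In the other direction the differences were small in level. XBXL10_1g43585 had 1.97, 1.17 and 1.29 CPM in NF25 morphants and 0.57, 0.68 and 0.70 CPM in BMS493 explants (log2 fold change 1.17, SE 0.26, edgeR adjusted p = 1.73e-04). XBXL10_1g23578 had 1.79, 1.91 and 1.61 CPM in morphants and 0.68, 1.02 and 0.74 CPM in BMS493 explants (log2 fold change 1.12, SE 0.25, edgeR adjusted p = 1.05e-04). In both genes every morphant library lay above every BMS493 library.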

How the data were processed

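Stranded mRNA libraries were sequenced, 24 in all, per the labels' protocols. The authors deposited estimated counts and TPM as 1 table each. RSEM 1.3.0 and Bowtie2 are named in the submitters' processing notes. Genome build, annotation and strand setting are not given in the sources. The deposited counts are whole, yet 6245 of 1067472 values are 0 where TPM exceeds 0. Labels of morphant NF33 replicates 2 and 3 repeat the name of replicate 1 in 1 line, so library name and title decided. A row for reads with no gene, which had 0% of counts, was dropped.

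The members and lists were chosen with earlier results of these data known. TPM served for the choice and for levels. Tests on counts used edgeR 4.0.16 (R 4.3.3): filterByExpr over the 8 groups (minimum count 10, minimum total 15) left 28313 genes, including 235 of the 236, libraries were scaled by TMM, and all 24 libraries entered 1 quasi-likelihood model of group means (glmQLFit, glmQLFTest). In each of 5 comparisons, calls needed an adjusted p (Benjamini-Hochberg, all tested genes) under 0.05. The SE beside a log2 fold change is its size divided by the square root of the F value of that edgeR test. Where a group has few counts it can fall below the counting error, so it is left out for such genes. The 1 member that failed the filter is counted among the 236 and has no test. The procedure was tested on simulated data, with changes placed only in genes averaging at least 1 CPM over NF25 controls and morphants. Recovery of changes in lower genes was not covered. Because identifiers could not be paired with symbols, the planned gene lists and cell type markers were not run. Named were the 2 members highest in NF33 controls and, per comparison, the 2 with the largest log2 fold change in each direction among called members whose groups do not overlap and whose mean is at least 1 CPM in a group. Counting intervals are exact 95% intervals. The lowest mean chi-square per gene between replicates of a group was 1.921, so no library was counted as a repeat of another. Alternatives were other scalings, filters, samples, tests (DESeq2 1.42.0, limma 3.58.1) and libraries left out.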

Additional observations from a re-analysis of the deposited data

Results flagged for a closer look

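Of the 17 named genes, 11 had an rfx6 effect that differed between NF38 and NF25, by edgeR's quasi-likelihood test of the difference between the 2 log2 fold changes (morphant over control at NF38 minus morphant over control at NF25, 24 libraries, adjusted over 28313 genes). The test runs across batch tags, so stage and batch cannot be told apart. It was added after the data had been seen, and the genes were named for large values in single comparisons. Among the 235 genes tested it called 23 higher (18.7% of all genes tested) and 54 lower (14.1% of all genes tested). The NF25 and NF38 controls enter this difference and also helped to choose the genes. A low NF25 control and a high NF38 control both favour a lower value, so these counts are partly built into the choice.

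The effect was lower at NF38 for 7 genes. XBXL10_1g17220 had the difference -2.63 (0.10 SE, edgeR adjusted p = 3.03e-34), with effects of -0.85 at NF38 and 1.78 at NF25. XBXL10_1g11881 had -2.10 (0.38 SE, edgeR adjusted p = 4.56e-06), with -0.31 at NF38 and 1.79 at NF25. XBXL10_1g30797 had -1.71 (0.22 SE, edgeR adjusted p = 1.01e-09), with -1.08 at NF38 and 0.63 at NF25. XBXL10_1g22986 had -1.62 (0.10 SE, edgeR adjusted p = 2.91e-23), with -1.27 at NF38 and 0.35 at NF25. For XBXL10_1g43585 it was -1.16 (0.30 SE, edgeR adjusted p = 0.00122), for XBXL10_1g23578 -1.03 (0.31 SE, edgeR adjusted p = 0.006308) and for XBXL10_1g31738 -0.99 (0.08 SE, edgeR adjusted p = 3.76e-16).

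The effect was higher at NF38 for 4 genes. XBXL10_1g33347 had the difference 2.73 (edgeR adjusted p = 0.0335), which rests on 1 count in morphants and 8 in controls at NF25. XBXL10_1g37725 had 2.43 (0.32 SE, edgeR adjusted p = 2.37e-09), with 0.76 at NF38 and -1.67 at NF25. XBXL10_1g3230 had 1.51 (0.10 SE, edgeR adjusted p = 2.51e-22) and XBXL10_1g5546 had 0.85 (0.20 SE, edgeR adjusted p = 3.54e-04), both lower in morphants at the 2 stages and less so at NF38.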

How the results depend on the processing

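None of the recomputed results turned direction. At NF38, genes called lower in morphants ran from 106 to 147 and genes called higher from 9 (limma on log2(TPM + 0.1)) to 36. With only the 2 groups compared, fewer low genes passed the filter (116, 129 and 131 of the 236 in the 3 comparisons at NF25): for morphants over control at NF25 the genes called higher were 15 in place of 25 and those at least 2-fold higher 6 in place of 13, for BMS493 over control at NF25 those at least 2-fold were 26 higher and 3 lower in place of 46 and 5, and for morphants over BMS493 at NF25 the called higher were 7 in place of 12 and those at least 2-fold were 3 higher and 36 lower in place of 6 and 59.

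With limma on log2(TPM + 1), whose pseudocount shrinks the folds of low genes, at least 2-fold calls were 1 higher and 5 lower for morphants over control at NF25, 12 higher and 0 lower for BMS493 over control, 0 higher and 16 lower for morphants over BMS493 (6 called higher at any fold), and 1 higher at NF38. Limma on log2(TPM + 0.1) gave 3 at least 2-fold lower for BMS493 over control and 3 at least 2-fold higher for morphants over BMS493. For NF38 over NF25 morphants both gave 1 called lower in place of 2. With no filter on low counts, 19 in place of 12 were at least 2-fold lower at NF38, and 1 in place of 0 between morphant stages. The causes were not tested beyond what these settings change. Of single genes, XBXL10_1g15760 at NF38 was -1.33 with limma on log2(TPM + 0.1) (adjusted p = 0.0586), and XBXL10_1g30797 between morphant stages was -0.28 and -0.41 with the 2 pseudocounts (adjusted p = 0.1428 and 0.1031).

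Leaving out 1 library gave 16 (without control NF25 replicate 3) to 27 called higher and 10 (without morphant NF25 replicate 3) to 19 at least 2-fold lower for morphants over control at NF25, 3 (without BMS493 NF25 replicate 1) to 7 at least 2-fold lower for BMS493 over control, and 0 to 1 at least 2-fold lower between morphant stages. Same-numbered libraries did not pair: their deviations correlated between -0.18 and 0.18, and 2 of 15 pairs were best partners. With the replicate number as a block the called higher and lower were 25 and 48, 77 and 15, 12 and 99, 32 and 137, and 231 and 2 in the order of morphants over control, BMS493 over control and morphants over BMS493 at NF25, morphants over control at NF38, and NF38 over NF25 morphants. Total library size shifted the median of all genes to -0.10 for morphants over control at NF25 and to 0.28 between morphant stages. Choosing on TMM-scaled CPM or with a pseudocount of 0.1 reached the limit of 300 genes, with 188 and 205 of the 236 among them, and leaving out 1 library gave 229 to 241 genes. DESeq2 gave no adjusted p for 1 of the genes in each comparison.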

Other observations

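Identifier numbers placed 25 of the 236 genes directly next to another of them, and these 25 held 25.4% of the summed TPM of the 236 in NF33 controls. Among the rising genes within 0.4 of control in both treatments this was 42 of 678, and among those low in both it was 14 of 234. Whether the numbers follow the order of genes in the genome was not stated.

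CPM for each TPM, which follows transcript length, had a median of 1.38 over the 236 genes and 1.56 over all genes tested, so the genes were of slightly lower estimated length than the median gene tested. The difference was not tested.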
